A study of Mus musculus with 9 samples.

Results

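The secretoglobins described here are 6 genes of the mouse nasal mucosa, Scgb1a1, Scgb3a1, Scgb3a2, Scgb1c1, Scgb1b27 and Scgb2b27, chosen by symbol as the airway and nasal members of the family, and they are 6 of the 21930 genes in the expression table. RNA sequencing of nasal mucosal tissue was run on 9 libraries from wild-type mice, 3 in each of 3 groups. The eCRS_Exo group received papain, a plant protease that provokes eosinophilic airway inflammation, together with MSC-Exos, exosomes of mesenchymal stromal cells; the eCRS group (eosinophilic chronic rhinosinusitis model) received papain without them; the control group is labelled as untreated. Papain was given into the nose at 20 μg in 20 μl of PBS on days 0 to 2 and 7 to 11, MSC-Exos or PBS by the same route on days 7 to 11, and the mice were killed at day 12. The sources used here do not state strain, age, sex, the origin of the exosomes or whether control mice received PBS. The labels do not say that the 3 libraries of a group came from separate mice, so the p-values below measure the spread between libraries, which may be technical.

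Secretoglobins are small secreted proteins made of paired helical chains joined by disulfide bonds, with a hydrophobic pocket between the chains. Scgb1a1, also called uteroglobin or club cell secretory protein, Scgb3a1 and Scgb3a2 are products of secretory cells of the conducting airways. Scgb1b and Scgb2b genes encode the alpha and the beta or gamma chains of the androgen-binding proteins of mouse saliva, tears and nasal secretions, which are secreted as dimers of an alpha with a beta or gamma chain. Scgb1c1 was described as a transcript of the olfactory mucosa in rats and carries the older name RYD5.

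Expression is in FPKM, fragments scaled to the length of the transcript and to the size of the library, so that levels of different genes can be set side by side. FPKM summed to between 495489 and 805206 per library, and the depth behind a library was roughly 15.1 to 24.6 M fragments (M, mega). Most genes stood higher in the eCRS_Exo libraries as deposited: the median log2 change over all genes tested was 0.76 against control and 0.56 against eCRS, and 0.19 for eCRS against control. Each result is therefore given both as deposited and after median-of-ratios scaling, which divides each library by the median ratio of its genes to their geometric means and brings those medians to between -0.01 and 0.01. The scaling factors were 1.18 to 1.75 in eCRS_Exo, 0.710 to 1.07 in eCRS and 0.763 to 0.765 in control, so the library eCRS 2, at 0.710, stood with the controls. In bulk tissue, fewer cells of a type and less RNA per cell cannot be told apart.

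The secretoglobins of the nose fell into 3 levels. Scgb1c1, Scgb2b27 and Scgb1b27 were among the most abundant transcripts, Scgb3a1 was low in control and intermediate in both papain groups, and Scgb1a1 and Scgb3a2 were at or near 0. In control libraries Scgb1c1 ranked 25 of 21930 genes in every library, Scgb2b27 ranked 32 to 36 and Scgb1b27 ranked 36 to 51, while Scgb3a1 ranked 6263 to 9333. The 6 genes together made up 0.475%, 0.403% and 0.393% of the summed FPKM in eCRS_Exo libraries, 0.537%, 0.558% and 0.630% in eCRS libraries and 0.366%, 0.500% and 0.460% in control libraries. Every eCRS library was above every other library in this share, and the eCRS_Exo and control libraries overlapped. The summed FPKM of the 6 genes ordered the groups otherwise. It was 2105 to 2607 in eCRS_Exo, 3653 to 4451 in eCRS and 2945 to 3684 in control. In this sum every eCRS_Exo library was below every other library, and the eCRS and control libraries overlapped. The same held after scaling, at 1319 to 2216 in eCRS_Exo, 3418 to 6268 in eCRS and 3853 to 4814 in control.

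Scgb1a1 and Scgb3a2, which encode the main secretoglobins of the lower airway, were listed at 0 in 6 of 9 libraries each. Scgb1a1 (chr19:9083636-9087958, minus strand, GRCm38) was at 0.118, 0.0797 and 0 FPKM in eCRS_Exo, at 0.106, 0 and 0 FPKM in eCRS and at 0 in all 3 control libraries. Scgb3a2 (chr18:43764289-43767399, plus strand) was at 0, 0.0859 and 0.104 FPKM in eCRS_Exo, at 0, 0 and 0.161 FPKM in eCRS and at 0 in all 3 control libraries. At the rough depths, every value of Scgb1a1 above 0 was less than 1 fragment (0.790 to 0.853), and those of Scgb3a2 were 1.54 to 3.37 fragments, so a difference between groups was not detectable at this depth. Neither gene passed the filter of 1 FPKM in at least 3 libraries, and neither was tested. Nkx2-1, the transcription factor of the lung and thyroid that activates both genes in the lung, was listed at 0 in all 9 libraries, and Foxa2 did not exceed 0.105 FPKM. Other genes of airway secretory cells were abundant in the same libraries. Cyp2f2, a cytochrome P450 of club cells and olfactory mucosa, was at 1191, 1116 and 952 FPKM in eCRS_Exo, at 597, 423 and 487 FPKM in eCRS and at 656, 594 and 642 FPKM in control.

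Of the 4 secretoglobins that could be tested, 1 rose and none fell in eCRS against control, where 3.01% of all 12738 genes tested rose and 0.518% fell (limma, adjusted p under 0.05), and the same count stood after scaling, where 5.77% rose and 4.15% fell. In eCRS_Exo against eCRS 2 fell and none rose, where 0.730% of all genes fell and 63.0% rose, and after scaling 3 fell, where 16.2% of 12507 genes fell and 13.4% rose. In eCRS_Exo against control 1 rose and 2 fell, where 84.3% of all genes rose and 0.526% fell, and after scaling 1 rose and 3 fell, where 12.3% rose and 15.6% fell. The median log2 change of the 4 was 0.29, -0.90 and -0.60 in those comparisons as deposited, and 0.05, -1.61 and -1.56 after scaling. The comparisons share libraries, so their counts are not independent of each other.

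**Figure D1:**
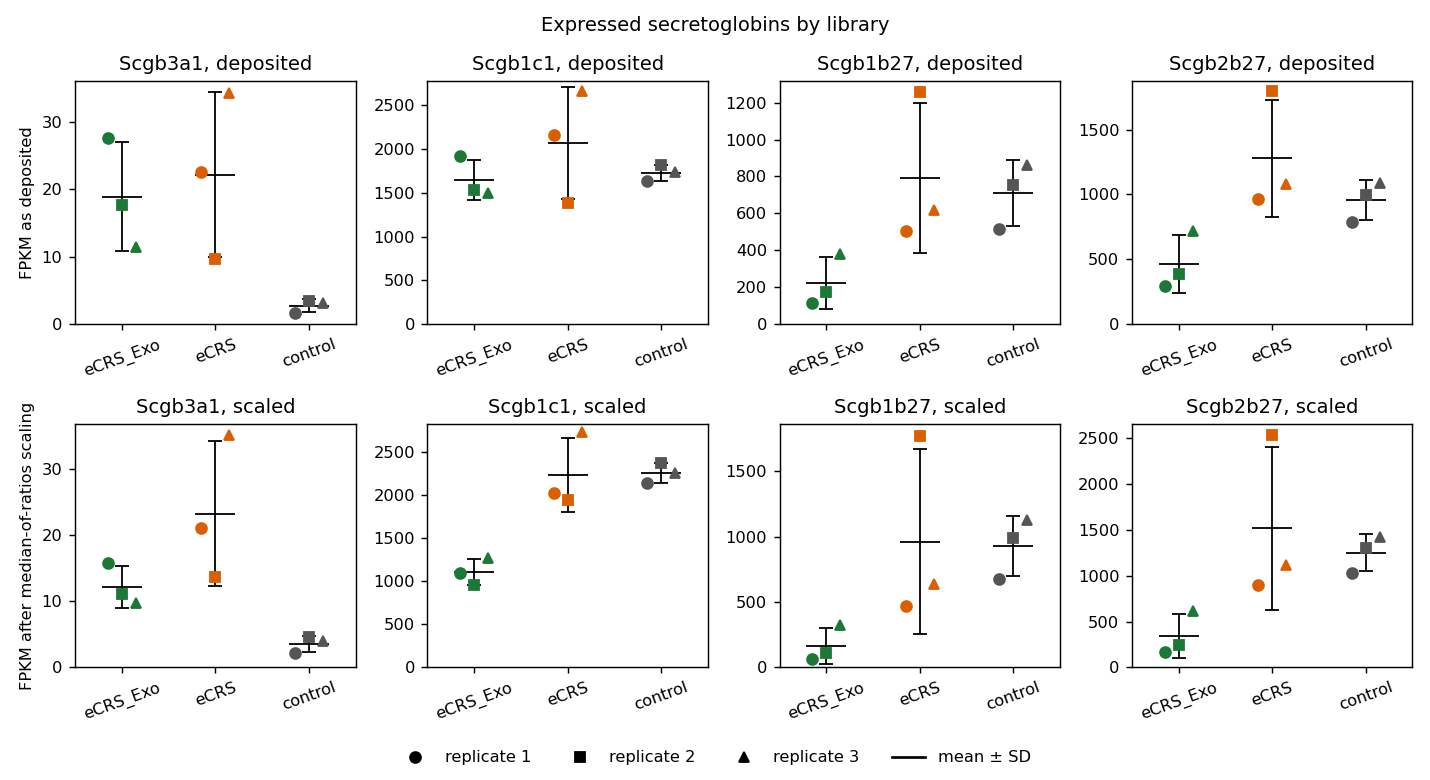
FPKM of the 4 expressed secretoglobins in each library, as deposited (upper panels) and after median-of-ratios scaling (lower panels), with points for libraries, symbols for replicate numbers, and lines for the group mean ± SD (n = 3 each). Scgb3a1 is higher in all 6 papain libraries than in any control library on both scales, and Scgb1b27 and Scgb2b27 are lowest in the eCRS_Exo libraries.

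Scgb3a1 was the secretoglobin that rose with papain. It lies at chr11:49663610-49665118 on the plus strand of GRCm38 and encodes a protein of airway and other epithelia also known as HIN-1. The level was 27.5, 17.6 and 11.5 FPKM in eCRS_Exo libraries, 22.5, 9.69 and 34.2 FPKM in eCRS libraries and 1.72, 3.48 and 3.07 FPKM in control libraries. All 6 papain libraries were above all 3 control libraries, while the eCRS_Exo and eCRS libraries overlapped. Group means were 18.9 ± 8.09 FPKM in eCRS_Exo, 22.1 ± 12.2 FPKM in eCRS and 2.76 ± 0.921 FPKM in control (SD, n = 3 each). In eCRS against control the log2 change of FPKM + 1 was 2.49 (SE 0.34, 95% interval 1.79 to 3.19, limma adjusted p = 9.15e-05), and 2.34 after scaling (adjusted p = 0.00218). The call stood without any 1 of the 9 libraries on both scales, with log2 changes of 2.11 to 2.97 as deposited and 2.0 to 2.66 after scaling.

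With MSC-Exos, Scgb3a1 remained above control. The log2 change in eCRS_Exo against control was 2.35 as deposited (limma adjusted p = 4.39e-05) and 1.53 after scaling (adjusted p = 0.00877). Against eCRS it was -0.14 as deposited, with a 95% interval of -0.84 to 0.56 (adjusted p = 0.712), and -0.81 after scaling, with an interval of -1.52 to -0.10 (adjusted p = 0.0802). Scaled means were 12.2 ± 3.16 in eCRS_Exo, 23.3 ± 10.9 in eCRS and 3.61 ± 1.21 in control. Without the library eCRS 2, the scaled change against eCRS was -1.13 and passed the test (adjusted p = 0.0293), so whether Scgb3a1 differed between the papain groups rested on that library and on the scale.

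The 250 bases before the RefSeq start of Scgb3a1 (GRCm38.p6, chr11:49663345-49663594, plus strand) are shown because this is the one gene of the set that rose in both papain groups. They were searched on both strands for 4 forms of motifs: CTCAAG, bound by NKX2-1 in lung genes, TGTTTA of FOXA factors, TTGCNNAA of C/EBP factors, and the STAT form, TTC and GAA spaced by 4 bases. Capitals mark a match.
Scgb3a1 upstream: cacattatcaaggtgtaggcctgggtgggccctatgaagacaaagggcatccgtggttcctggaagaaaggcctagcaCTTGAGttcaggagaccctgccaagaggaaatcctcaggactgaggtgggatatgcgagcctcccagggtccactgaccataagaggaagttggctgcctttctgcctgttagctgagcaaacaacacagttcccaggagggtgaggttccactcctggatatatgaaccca
Of the 4 forms, CTCAAG alone was found, on the minus strand with its first base at -172 relative to the start. This form is in 13.3% of 32851 RefSeq promoters of the same length, and it is present here although Nkx2-1 was listed at 0. A match of letters is a description and not a binding site.

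Nearest genes, here and below, were sought among genes with a symbol, leaving out Gm, Rik and Scgb names. Those whose profile over the 9 scaled libraries was nearest to that of Scgb3a1 were Serpina3n, an acute-phase serine protease inhibitor, Serpina3g, an intracellular relative of it, and Il1b, the cytokine interleukin-1 beta. Their root mean square distances were 0.30, 0.41 and 0.44 on the log2 scale after centring. Serpina3n averaged 114 FPKM in eCRS_Exo, 104 FPKM in eCRS and 12.5 FPKM in control. The distance of Scgb3a1 to the other expressed secretoglobins was larger, 1.21 to Scgb1c1, 1.72 to Scgb2b27 and 2.03 to Scgb1b27.

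**Figure D2:**
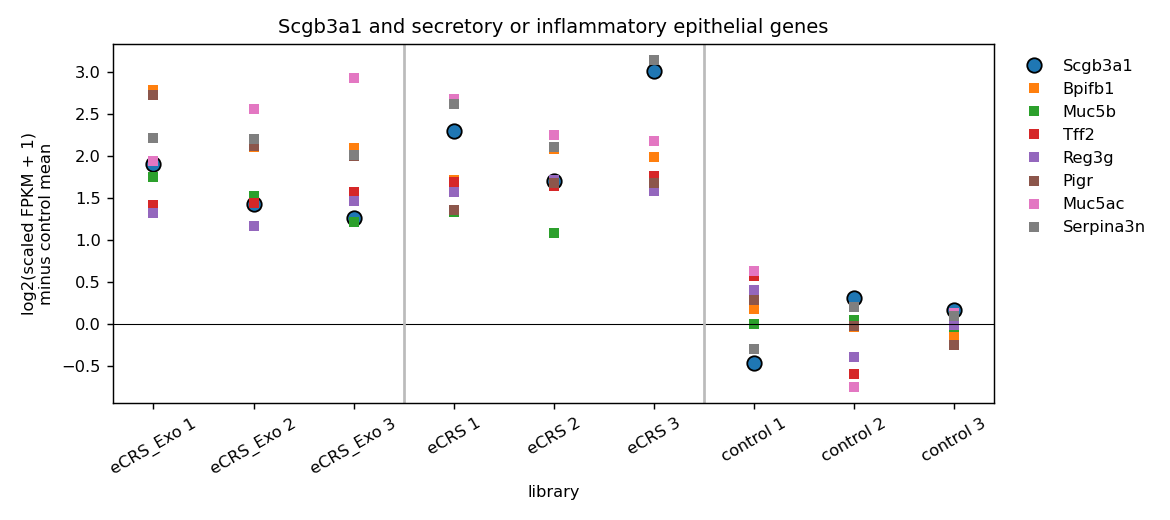
Scgb3a1 (circles) and 7 genes of secretory or inflamed epithelium (squares) in each library, as log2 of scaled FPKM + 1 minus the mean of the control libraries. All of them are above every control library in all 6 papain libraries, and Scgb3a1 is highest in the library eCRS 3. The 7 are listed genes that rose in eCRS against control and Serpina3n, the gene nearest in profile, so their likeness follows from the choice. Listed genes that did not rise, such as Cyp2f2, Cbr2 and Cldn10, are not drawn.

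Some genes of airway secretory cells rose beside Scgb3a1 and others did not. Of 12 listed genes, all tested, 6 rose and none fell in eCRS against control, where 3.01% of all genes rose. The median log2 change of the 12 was 0.67 against 0.19 over all genes. After scaling 6 rose and 1 fell, where 5.77% of all genes rose and 4.15% fell. The gene that fell was Cyp2f2 (-0.58, limma adjusted p = 0.0205), a call lost without control 1, control 2, control 3 or eCRS 3. Cbr2, Cldn10, Hp, Gabrp and Bpifa1 did not pass on either scale. Bpifb1, a secreted antimicrobial protein of mucous cells, was at 87.7, 49.5 and 36.3 FPKM in eCRS_Exo, at 25.0, 21.7 and 27.8 FPKM in eCRS and at 5.67, 4.77 and 4.41 FPKM in control, with a log2 change of 2.12 in eCRS against control (limma adjusted p = 1.20e-05). Reg3g, a secreted antibacterial lectin, was at 6065, 5006 and 4510 FPKM in eCRS_Exo, at 4422, 3259 and 4065 FPKM in eCRS and at 1410, 810 and 1057 FPKM in control, with a log2 change of 1.87 (adjusted p = 2.33e-05). Neither gene had overlapping values between the papain groups and control. In eCRS_Exo against eCRS 8 of the 12 rose and 1 fell as deposited, where 63.0% of all genes rose, and after scaling 2 rose and 1 fell, where 13.4% of all genes rose and 16.2% fell, with a median of 0.08 against -0.01 over all genes. Pigr, the receptor that carries IgA into secretions, rose by 1.42 on the log2 scale as deposited (adjusted p = 6.05e-04) and by 0.71 after scaling (adjusted p = 0.0253), and the scaled call was lost without eCRS 1, eCRS 3 or eCRS_Exo 1.

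Goblet cell genes also moved with papain. Of 8 listed, 6 were tested and all 6 rose in eCRS against control on both scales, with a median log2 change of 2.55 as deposited. Of all genes, 3.01% rose in that comparison as deposited and 5.77% after scaling. The call of Spdef was lost without control 3 or eCRS 3 as deposited, and without control 2, control 3, eCRS 1, eCRS 2 or eCRS 3 after scaling. Itln1, a lectin of goblet cells, was at 30.2, 25.4 and 19.4 FPKM in eCRS_Exo, at 24.6, 24.3 and 27.8 FPKM in eCRS and at 1.70, 0.646 and 1.66 FPKM in control. Fcgbp, a mucin-associated protein, was at 8.99, 9.84 and 8.86 FPKM in eCRS_Exo, at 15.7, 10.2 and 9.45 FPKM in eCRS and at 1.23, 1.0 and 0.979 FPKM in control. The summed level of the 8 was 182 to 248 in scaled eCRS_Exo libraries, 416 to 493 in scaled eCRS libraries and 179 to 192 in scaled control libraries. Agr2 made up most of this sum in every library. In eCRS_Exo against control 4 of the 6 rose and none fell after scaling, with a median log2 change of 1.30. Agr2 (-0.15) and Spdef (0.03) did not pass there. In that comparison 12.3% of all genes rose and 15.6% fell. As deposited all 6 rose, where 84.3% of all genes did. In eCRS_Exo against eCRS 5 of the 6 fell after scaling, where 16.2% of all genes fell and 13.4% rose. The scaled call of Itln1 there was lost without eCRS 2, eCRS 3, eCRS_Exo 1 or eCRS_Exo 2, and that of Spdef without eCRS 2, eCRS_Exo 1 or eCRS_Exo 2. As deposited 1 of the 6 rose and 2 fell, where 63.0% of all genes rose and 0.730% fell. The part of these cells in the level of Scgb3a1 was not tested.

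Scgb1c1 was the most abundant of the secretoglobins in 8 of 9 libraries and did not pass the test in eCRS against control. It lies at chr7:140845547-140846769 on the plus strand. The level was 1916, 1531 and 1495 FPKM in eCRS_Exo libraries, 2162, 1387 and 2661 FPKM in eCRS libraries and 1640, 1817 and 1734 FPKM in control libraries. The eCRS libraries held both the highest and the lowest of the 9 values, and the 3 groups overlapped. Log2 changes as deposited were 0.21 in eCRS against control (limma adjusted p = 0.649, 95% interval -0.26 to 0.68), -0.29 in eCRS_Exo against eCRS (adjusted p = 0.256, interval -0.76 to 0.18) and -0.08 in eCRS_Exo against control (adjusted p = 0.741, interval -0.55 to 0.39). In rank it stood at 28 to 29 in eCRS_Exo, 25 to 29 in eCRS and 25 in control.

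Relative to the median gene Scgb1c1 was lower with MSC-Exos. Scaled values were 1098, 959 and 1271 in eCRS_Exo, 2023, 1953 and 2740 in eCRS and 2145, 2382 and 2265 in control. The eCRS_Exo libraries lay below all others and the eCRS and control libraries overlapped. After scaling the log2 change was -1.0 in eCRS_Exo against eCRS (SE 0.19, limma adjusted p = 0.0062) and -1.04 in eCRS_Exo against control (adjusted p = 0.00528), both past the threshold without any 1 of the libraries. As deposited the change against eCRS passed only without eCRS 2, at -0.55 (adjusted p = 0.0324). In the GENCODE M21 annotation the noncoding genes Gm45785 and C330022C24Rik overlap Scgb1c1 on the minus strand, and the sources used here do not state the strand setting of the counting, so reads of these genes cannot be told apart from its own.

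The 250 bases before the RefSeq start of Scgb1c1 (chr7:140845315-140845564, plus strand) are shown as those of the most abundant member, and capitals again mark matches to the 4 forms.
Scgb1c1 upstream: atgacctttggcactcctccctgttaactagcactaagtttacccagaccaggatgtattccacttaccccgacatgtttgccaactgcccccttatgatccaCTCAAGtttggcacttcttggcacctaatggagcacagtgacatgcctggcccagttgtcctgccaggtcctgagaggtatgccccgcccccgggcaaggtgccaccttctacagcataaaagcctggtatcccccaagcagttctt
Here too CTCAAG alone was found, on the plus strand at -147. The genes of nearest profile to Scgb1c1 were Fkbp11, a folding enzyme of the secretory pathway, at a distance of 0.15, Filip1l at 0.16 and Rps12, a ribosomal protein, at 0.17.

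Scgb1b27 and Scgb2b27, the alpha and the beta or gamma chain genes of an androgen-binding protein, were the 2 of the 4 tested members that fell with MSC-Exos on both scales. Scgb1b27 lies at chr7:34021483-34022881 on the plus strand and Scgb2b27 at chr7:34011921-34013942 on the minus strand, head to head with 7539 bases between their starts. Scgb1b27 was at 116, 172 and 381 FPKM in eCRS_Exo libraries, at 505, 1258 and 616 FPKM in eCRS libraries and at 515, 753 and 862 FPKM in control libraries. Scgb2b27 was at 294, 385 and 719 FPKM in eCRS_Exo libraries, at 963, 1796 and 1080 FPKM in eCRS libraries and at 788, 997 and 1086 FPKM in control libraries. For both genes every eCRS_Exo library was below every other library, the library eCRS 2 was the highest and eCRS_Exo 3 was the highest of its group.

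Papain alone did not move the pair past the test. In eCRS against control the log2 change was 0.08 for Scgb1b27 (limma adjusted p = 0.924) with means of 793 ± 406 FPKM in eCRS and 710 ± 177 FPKM in control, and 0.38 for Scgb2b27 (adjusted p = 0.507) with means of 1280 ± 451 FPKM in eCRS and 957 ± 153 FPKM in control (SD, n = 3 each). After scaling the changes were -0.17 and 0.14, with 95% intervals of -1.49 to 1.16 for Scgb1b27 and -0.94 to 1.21 for Scgb2b27. In eCRS_Exo against eCRS Scgb1b27 fell by 1.89 on the log2 scale (SE 0.35, 95% interval -2.62 to -1.16, adjusted p = 7.06e-04), with a mean of 223 ± 140 FPKM in eCRS_Exo. Scgb2b27 fell by 1.50 (SE 0.28, 95% interval -2.09 to -0.92, adjusted p = 7.26e-04), with a mean of 466 ± 224 FPKM in eCRS_Exo. After scaling the falls were 2.60 for Scgb1b27 (adjusted p = 0.0122) and 2.22 for Scgb2b27 (adjusted p = 0.0101), and both genes stayed past the threshold without any 1 of the libraries on either scale.

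The pair was also below control with MSC-Exos. Scgb1b27 fell by 1.81 on the log2 scale in eCRS_Exo against control (limma adjusted p = 2.83e-04) and Scgb2b27 fell by 1.13 (adjusted p = 0.00157). After scaling the falls were 2.77 (adjusted p = 0.0100) and 2.08 (adjusted p = 0.0133). The scaled call of Scgb2b27 was lost without eCRS_Exo 1, where the change was -1.69 (adjusted p = 0.0550). In rank Scgb1b27 stood at 72 to 338 in eCRS_Exo, 32 to 59 in eCRS and 36 to 51 in control, and Scgb2b27 at 41 to 129 in eCRS_Exo, 28 to 38 in eCRS and 32 to 36 in control.

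The upstream sequences of the pair are shown together because both genes fell in the same libraries, each on its own coding strand, 5′ to 3′, with capitals for matches (chr7:34021231-34021480, plus strand, for Scgb1b27 and chr7:34013943-34014192, minus strand, for Scgb2b27).
Scgb1b27 upstream: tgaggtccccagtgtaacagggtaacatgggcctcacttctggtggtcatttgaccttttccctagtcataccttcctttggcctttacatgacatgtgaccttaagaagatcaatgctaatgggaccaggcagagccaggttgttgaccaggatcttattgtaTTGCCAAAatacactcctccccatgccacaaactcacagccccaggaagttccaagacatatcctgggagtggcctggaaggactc
Scgb2b27 upstream: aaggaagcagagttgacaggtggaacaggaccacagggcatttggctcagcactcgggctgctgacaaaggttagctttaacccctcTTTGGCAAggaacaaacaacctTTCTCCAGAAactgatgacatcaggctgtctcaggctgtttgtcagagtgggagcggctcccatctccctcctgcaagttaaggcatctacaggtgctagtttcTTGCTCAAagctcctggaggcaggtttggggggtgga
Scgb1b27 held the C/EBP form once, as TTGCCAAA at -86. Scgb2b27 held it at -163, on the minus strand, and at -37, and held the STAT form as TTCTCCAGAA at -141. The C/EBP form is in 9.56% and the STAT form in 5.85% of RefSeq promoters of this length. The pair had no match to TGTTTA, which is in 12.0% of promoters, nor to CTCAAG.

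**Figure D3:**
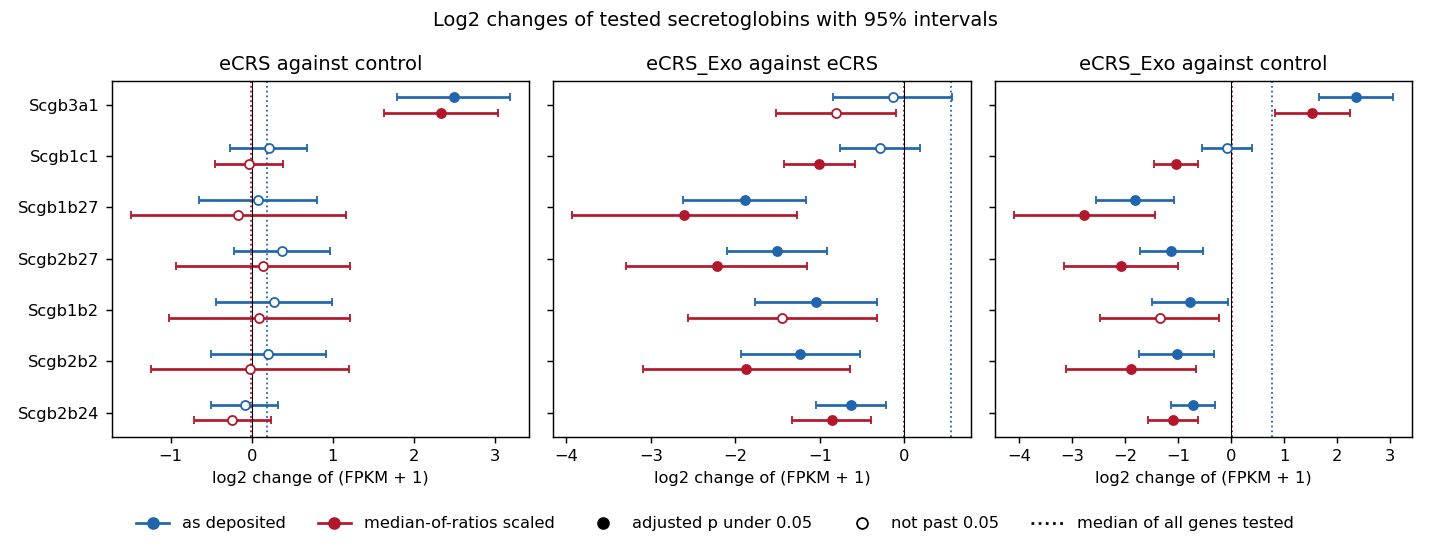
Log2 changes of FPKM + 1 with 95% intervals for the 4 tested members and 3 further secretoglobins, as deposited (blue) and scaled (red), with filled points for adjusted p under 0.05 and dotted lines at the median of all genes tested. Scgb3a1 is the one gene above 0 past the threshold in eCRS against control, and the Scgb1b and Scgb2b genes drawn lie below 0 in eCRS_Exo against eCRS.

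A further 28 genes of the table bear secretoglobin symbols, of which 13 were at 0 in all 9 libraries and 3 passed the filter. The 3 are relatives of the pair. Scgb2b2, another beta or gamma chain gene (chr7:31290508-31304977, plus strand), was at 6.39, 9.47 and 26.0 FPKM in eCRS_Exo, at 20.2, 40.4 and 29.7 FPKM in eCRS and at 26.1, 19.1 and 31.1 FPKM in control. Scgb1b2, an alpha chain gene within the Scgb2b2 locus on the minus strand (chr7:31290519-31291821), was at 1.05, 0.690 and 5.37 FPKM in eCRS_Exo, at 3.41, 7.00 and 4.53 FPKM in eCRS and at 3.12, 3.29 and 5.22 FPKM in control. Because the loci overlap, reads of Scgb1b2 and Scgb2b2 cannot be fully separated without strand. For both, eCRS_Exo 1 and eCRS_Exo 2 were the lowest of the 9 libraries and eCRS_Exo 3 lay within the range of the other groups.

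None of the 3 relatives passed the test in eCRS against control, and all 3 fell in eCRS_Exo against eCRS as deposited. Scgb2b2 fell by 1.23 (limma adjusted p = 0.00553), or by 1.87 after scaling (adjusted p = 0.0303), a scaled call lost without eCRS 2, eCRS 3, eCRS_Exo 1 or eCRS_Exo 2 (adjusted p of 0.0711 to 0.108). Scgb1b2 fell by 1.05 (adjusted p = 0.0145), a call lost without eCRS 2, eCRS_Exo 1 or eCRS_Exo 2 (adjusted p of 0.0701 to 0.0840), and after scaling it did not pass (adjusted p = 0.0541). Scgb2b24, at 0.199, 0.601 and 0.779 FPKM in eCRS_Exo, at 1.62, 1.33 and 1.08 FPKM in eCRS and at 1.05, 1.28 and 2.25 FPKM in control, fell by 0.63 (adjusted p = 0.0108), a call lost without eCRS_Exo 1 (adjusted p = 0.0776), and by 0.86 after scaling (adjusted p = 0.0156), a call lost without eCRS 2 or eCRS_Exo 1. In eCRS_Exo against control Scgb2b2 fell by 1.02 (adjusted p = 0.00972), a call lost without eCRS_Exo 1, and after scaling by 1.89 (adjusted p = 0.0309), a call lost without control 1, control 3, eCRS_Exo 1 or eCRS_Exo 2. Scgb1b2 fell by 0.77 (adjusted p = 0.0443), a call lost without control 3, eCRS_Exo 1 or eCRS_Exo 2, and it did not pass after scaling (adjusted p = 0.0695). Scgb2b24 fell by 0.72 (adjusted p = 0.00301) and after scaling by 1.10 (adjusted p = 0.00654). Scgb2b15 was the only other symbol with a group mean of at least 1 FPKM, at 1.98, 0 and 1.94 FPKM in eCRS_Exo, at 0 in eCRS and at 0, 0.601 and 0 FPKM in control, and it was not tested. The other untested symbols above 0 were low. Scgb1b3 averaged 0.897 FPKM in eCRS_Exo and 0.149 FPKM in eCRS, and Scgb2b7 0.740 and 0.0204 FPKM. Means of Scgb1b7, Scgb1b20, Scgb1b29, Scgb2b12, Scgb2b17 and Scgb2b20 were also higher in eCRS_Exo than in eCRS. Those of Scgb1b30, Scgb2b3 and Scgb2a2 were lower.

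The coding sequences bear on how far these relatives can be told apart, since the sources used here do not state how reads shared by paralogs were handled. Identity with Scgb2b27 was 70.4% for Scgb2b2 and 68.9% for Scgb2b24, and identity with Scgb1b27 was 74.6% for Scgb1b2, 80.6% for Scgb1b3 and 88.9% for Scgb1b30. The first 150 coding bases of Scgb2b27 and Scgb2b2 (GENCODE M21, GRCm38), whole coding lengths 339 and 345 bases, are shown with capitals for bases that differ in their alignment.
Scgb2b27 first coding bases: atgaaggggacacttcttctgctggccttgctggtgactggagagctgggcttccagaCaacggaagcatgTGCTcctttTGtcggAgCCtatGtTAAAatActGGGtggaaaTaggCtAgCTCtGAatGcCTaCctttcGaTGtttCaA
Scgb2b2 first coding bases: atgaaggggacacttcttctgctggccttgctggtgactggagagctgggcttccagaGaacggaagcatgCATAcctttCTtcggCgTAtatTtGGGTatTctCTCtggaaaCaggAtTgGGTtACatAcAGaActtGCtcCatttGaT
Their first 58 bases are the longest run they share. Within the pair itself, Scgb1b27 and Scgb2b27 were 51.1% identical with no shared run over 10 bases. Levels of the Scgb1b and Scgb2b genes are therefore uncertain where reads could be split between relatives.

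Ratios within a library do not move with its scale. The FPKM ratio of Scgb2b27 to Scgb1b27 was 2.53, 2.24 and 1.89 in eCRS_Exo, 1.91, 1.43 and 1.75 in eCRS and 1.53, 1.32 and 1.26 in control. It was above 1 in all 9 libraries, and the eCRS_Exo libraries lay above all control libraries while eCRS overlapped both groups. The mean log2 ratio differed by 0.69 between eCRS_Exo and control (exact two-sided permutation p = 0.10, the smallest that 3 against 3 libraries can give, adjusted p = 0.375 over 15 such tests), by 0.39 between eCRS_Exo and eCRS (exact p = 0.20) and by 0.30 between eCRS and control (exact p = 0.20). Ratios over Scgb1a1 had been planned and could not be formed, so ratios over Scgb1c1 were chosen after the values were seen. The ratio of Scgb3a1 to Scgb1c1 was 0.0144, 0.0115 and 0.00767 in eCRS_Exo, 0.0104, 0.00699 and 0.0128 in eCRS and 0.00105, 0.00191 and 0.00177 in control. Both papain groups lay above control without overlap (log2 differences of 2.83 for eCRS_Exo and 2.68 for eCRS, exact p = 0.10 each) and overlapped each other. The ratio of Scgb1b27 to Scgb1c1 was 0.0606, 0.112 and 0.255 in eCRS_Exo, 0.234, 0.907 and 0.231 in eCRS and 0.314, 0.414 and 0.497 in control. Here eCRS_Exo lay below control without overlap (log2 difference -1.74, exact p = 0.10) and overlapped eCRS (-1.61, exact p = 0.30), where eCRS_Exo 3 was above eCRS 1 and eCRS 3. The ratio of Scgb2b27 to Scgb1c1 in eCRS_Exo overlapped both control (log2 difference -1.05, exact p = 0.20) and eCRS (-1.22, exact p = 0.30).

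**Figure D4:**
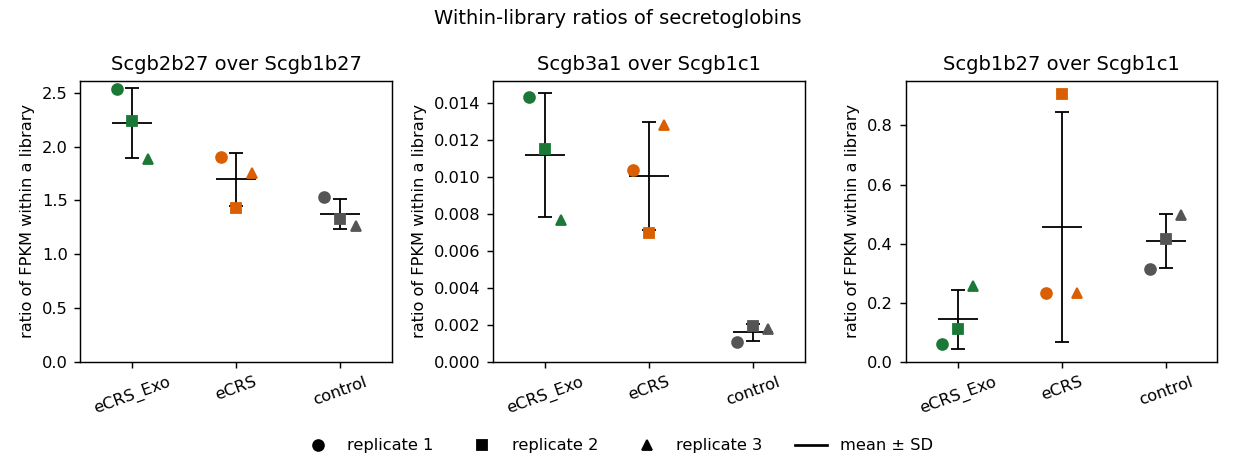
Ratios of FPKM between secretoglobins within each library, with points for libraries and lines for the group mean ± SD (n = 3 each). The mean of Scgb2b27 over Scgb1b27 is highest in eCRS_Exo, Scgb3a1 over Scgb1c1 is lowest in control, and Scgb1b27 over Scgb1c1 is lowest in eCRS_Exo 1.

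Secreted products of the nasal glands were followed beside the androgen-binding pair, and as deposited some of them fell in eCRS_Exo against eCRS while others rose. Of 17 listed, 16 were in the table and were tested: 2 fell and none rose in eCRS against control, 5 fell and 4 rose in eCRS_Exo against eCRS, and 9 fell and 2 rose in eCRS_Exo against control, with a median log2 change of -0.61 against 0.76 over all genes in the last. After scaling 1, 3 and 8 fell and 0, 0 and 1 rose, and the 3 of 16 that fell in eCRS_Exo against eCRS were close to the 16.2% of all genes that did. As deposited, 63.0% of all genes rose and 0.730% fell in that comparison. In eCRS_Exo against control 84.3% of all genes rose and 0.526% fell as deposited, and 12.3% rose and 15.6% fell after scaling. In eCRS against control 0.518% of all genes fell as deposited and 4.15% after scaling. The summed level of the 16 gland products was 120028, 140068 and 232890 FPKM in eCRS_Exo, 232875, 304205 and 241562 FPKM in eCRS and 332089, 290427 and 349830 FPKM in control. In this sum too eCRS_Exo 3 was the highest of its group and eCRS 2 the highest of the eCRS libraries. Mup4, a major urinary protein of nasal glands, was at 6458, 8593 and 16708 FPKM in eCRS_Exo, at 21646, 28149 and 22709 FPKM in eCRS and at 29496, 23589 and 32289 FPKM in control. Mup4 fell by 1.30 on the log2 scale in eCRS_Exo against eCRS (limma adjusted p = 0.00143) and by 2.02 after scaling (adjusted p = 0.0180), a scaled call lost without eCRS 2, eCRS_Exo 1 or eCRS_Exo 2.

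Outside the family, Mup4 was also the gene of nearest profile to both chains, at a distance of 0.40 from Scgb1b27 and 0.33 from Scgb2b27, while the chains were 0.32 from each other and Scgb2b2 was 0.28 from Scgb2b27. Next came Lcn11, a lipocalin, and Obp1b, an odorant-binding protein, at 0.46 and 0.51 from Scgb1b27, and Obp1b and Tmigd1, a membrane protein, at 0.33 and 0.34 from Scgb2b27. Not every gland product followed this pattern. Obp2a, another odorant-binding protein, was at 8074, 9336 and 11010 FPKM in eCRS_Exo, at 6481, 11421 and 12079 FPKM in eCRS and at 22256, 28566 and 28929 FPKM in control. Obp2a fell by 1.45 in eCRS against control as deposited (limma adjusted p = 0.00111), and the papain groups overlapped. After scaling its call was lost without control 1, control 2, control 3, eCRS 1, eCRS 3 or eCRS_Exo 2 (limma adjusted p of 0.0590 to 0.115).

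**Figure D5:**
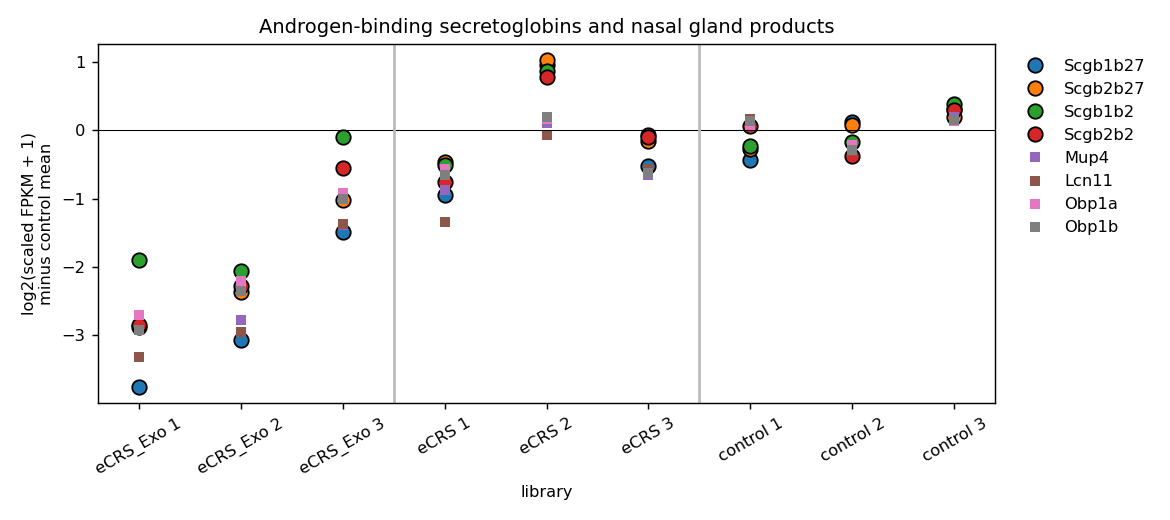
Androgen-binding secretoglobins (circles) and gland products (squares) in each library, as log2 of scaled FPKM + 1 minus the mean of the control libraries. Both kinds of gene drawn are lowest in eCRS_Exo 1 and eCRS_Exo 2, and the secretoglobins are highest in eCRS 2. Mup4, Lcn11 and Obp1b are among the genes nearest in profile to Scgb1b27, so their likeness follows from the choice. Gland products with a higher mean FPKM in eCRS_Exo than in eCRS, such as Bpifb3, Bpifb4 and Bpifb5, are not drawn, nor is Obp2a.

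Markers of other cells were measured beside the pair, mainly in eCRS_Exo against eCRS. In that comparison 63.0% of all genes rose and 0.730% fell as deposited, and 13.4% rose and 16.2% fell after scaling. Of 13 genes of serous, salivary and lacrimal acinar cells, 8 were tested; none passed in eCRS against control, and in eCRS_Exo against eCRS 2 rose and none fell as deposited, against 1 that fell after scaling. Of 8 olfactory neuron genes all 8 rose in eCRS_Exo against eCRS as deposited and 7 after scaling, with a scaled median log2 change of 1.15. In eCRS against control 4 of them fell after scaling, where 4.15% of all genes fell. The calls of Cnga2 and Adcy3 there were lost without control 1, control 2, control 3, eCRS 2 or eCRS 3. That of Stoml3 was lost without control 2 or control 3, and that of Cnga4 without control 2. Of 6 sustentacular genes 4 rose in eCRS_Exo against eCRS as deposited and 2 after scaling. Of 8 ciliated cell genes 6 rose as deposited and none passed after scaling, and of 5 tested basal cell genes 1 rose and 1 fell as deposited and 2 fell after scaling. The part of a different share of glands, olfactory or respiratory epithelium between samples in the levels of the secretoglobins was not tested.

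Transcription factors known to act on secretoglobin or mucous cell genes were followed in a list of 12, of which 9 were tested. In eCRS against control 4 rose on both scales and none fell, where 3.01% of all genes rose as deposited and 5.77% after scaling. As deposited the call of Cebpb was lost without control 1, control 2, control 3, eCRS 1 or eCRS 3. That of Cebpd was lost without control 2, eCRS 1 or eCRS 3, and that of Spdef, also among the goblet cell genes above, without control 3 or eCRS 3. Stat3, which carries cytokine signals to the nucleus, was at 23.6, 19.0 and 14.7 FPKM in eCRS_Exo, at 20.6, 12.2 and 18.2 FPKM in eCRS and at 8.83, 8.74 and 7.25 FPKM in control. Every papain library was above every control library, with a log2 change of 0.93 in eCRS against control (limma adjusted p = 0.0166) and of 0.72 after scaling (adjusted p = 0.00168). The call as deposited was lost without control 2, control 3 or eCRS 3 (adjusted p of 0.0561 to 0.112). In eCRS_Exo against eCRS 4 of the 9 rose as deposited, where 63.0% of all genes rose, while 4 fell after scaling, where 16.2% of all genes fell, Stat3 among those that fell (-0.51, adjusted p = 0.00587). In eCRS_Exo against control all 9 rose as deposited, where 84.3% of all genes did, and none passed after scaling.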

How the data were processed

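RNA sequencing of nasal mucosal tissue gave 9 libraries, 3 per group, and the authors deposited FPKM values for 21930 Ensembl genes in a single table. The tools named for this, per the submitters' processing notes, are fastp 0.19.4 for trimming, HISAT2 for alignment and StringTie for quantification, with the mm10 build. The sources used here do not state the annotation, the strand setting or how reads shared by paralogs were treated. Groups and replicate numbers came from the sample titles. Symbols were found for 21817 genes. Whole reads could not be recovered from the values, so no count test was run, and depths are rough estimates from the value of a single fragment, sought between 0.03 and 0.08 FPKM times kilobases. A gene at an FPKM of 0 is called listed at 0.

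The test was limma 3.58.1 under R 4.3.3 on log2(FPKM + 1), fitted once to all 9 libraries with a trend of variance on the mean. Genes entered it with 1 FPKM or more in 3 or more libraries, and p-values were adjusted by Benjamini-Hochberg over all of them, with a threshold of 0.05. A fold change on this scale understates the change of low genes. Median-of-ratios scaling used 16486 genes above 0 in all libraries. Ratios were compared by exact permutation tests with SciPy 1.17.1. The fit was checked on simulated data. Alternatives were another pseudocount, other filters, quantile normalization, fits of the 2 groups compared, no trend, a replicate block, a minimum log2 change of 1, and each library left out; their effect is in the closing section. Named genes were all members, other Scgb symbols with a group mean of at least 1 FPKM, up to 2 called genes of smallest p per list and comparison, and the 3 genes nearest in profile to each tested member. Genes with no symbol and those with Gm, Rik or Scgb names were left out of the search for nearest genes. Not every gene so named is described. The members and lists were chosen with earlier results of these data known. Coordinates are from GENCODE M21 (GRCm38). Upstream sequences are from RefSeq (GRCm38.p6), where 4 of the 6 members matched, each searched in its 250 bases for 4 motif forms fixed by their letters.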

Additional observations from a re-analysis of the deposited data

How the results depend on the processing

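For the 4 tested members, 324 recomputed log2 changes and calls gave the same side of zero and of the threshold in 273, a new call in 25, a lost call in 1 and a change of sign in 25. Every change of sign was in a comparison without a call. In eCRS against control, scaling gave -0.032 for Scgb1c1 and -0.17 for Scgb1b27, and quantile normalization gave -0.30 for Scgb1c1, -0.16 for Scgb1b27 and -0.054 for Scgb2b27. With each library left out, the same comparison ranged from -0.31 to 0.34 for Scgb1b27 as deposited, and after scaling from -0.73 to 0.23 for Scgb1b27, from -0.19 to 0.05 for Scgb1c1 and from -0.31 to 0.44 for Scgb2b27. Scaled values without control replicates 1, 2 and 3 were -0.38, -0.11 and -0.0093 for Scgb1b27; those of Scgb1c1 were -0.069 and -0.030 without control replicates 1 and 3, and -0.030, -0.030 and -0.031 without eCRS_Exo replicates 1, 2 and 3. For Scgb3a1 in eCRS_Exo against eCRS it ranged from -0.61 to 0.24 as deposited. The number of members called in eCRS_Exo against eCRS was 2 to 3 as deposited and 3 to 4 after scaling with each library left out, the 4 without eCRS replicate 2. The new calls were those of Scgb1c1 and Scgb3a1 given with the results, together with Scgb1c1 in eCRS_Exo against control under quantile normalization (-0.48, adjusted p = 0.032). A pseudocount of 0.1, no filter, a filter at 5 FPKM, no trend, fits of the 2 groups compared and a minimum log2 change of 1 changed no call of a member. Same-numbered libraries did not deviate together (correlations of deviations -0.31 to 0.14), so the numbers were not taken as pairs. A fit with the replicate block left every call of a member in place, for example 2.49 for Scgb3a1 in eCRS against control; the block after scaling gave -0.032 for Scgb1c1 and -0.17 for Scgb1b27 in that comparison. The ratios kept their side of the threshold, which 3 against 3 libraries cannot pass.

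Counts over all genes, the background of the member counts, depended more on the scale. In eCRS against control 383 genes rose and 66 fell as deposited, against 722 and 519 after scaling and 655 and 511 after quantile normalization, 166 and 41 without a filter, 279 and 22 with a filter at 5 FPKM, and 718 and 128 with 2 groups in the fit. In eCRS_Exo against eCRS 8022 rose and 93 fell, against 1672 and 2022 after scaling and 1744 and 1763 after quantile normalization. In eCRS_Exo against control 10736 rose and 67 fell, against 1540 and 1954 after scaling and 1557 and 1786 after quantile normalization. Without eCRS replicate 2, 1624 genes rose in eCRS against control, and without eCRS replicate 3, 150 rose.

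Scgb1a1 and Scgb3a2 were too low to compare at these depths. With 3 libraries a group, the intervals of Scgb1b27 and Scgb2b27 in eCRS against control span changes of about 1 on the log2 scale in both directions after scaling.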

Other observations

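Proteins reported to bind or take up secretoglobins were followed in a list of 10 genes, of which 7 were tested. None passed in eCRS against control on either scale. In eCRS_Exo against control all 7 rose as deposited, where 84.3% of all genes rose, with a median log2 change of 0.80 against 0.76 over all genes tested. After scaling none of the 7 rose and 1 fell, where 12.3% of all genes rose and 15.6% fell. The gene that fell was Itgb1, a call lost without control 1, control 3, eCRS_Exo 1 or eCRS_Exo 2. Sdc1, the heparan sulfate proteoglycan syndecan-1, was at 19.2, 16.7 and 14.0 FPKM in eCRS_Exo, at 12.7, 9.98 and 11.0 FPKM in eCRS and at 8.40, 6.48 and 8.88 FPKM in control, and after scaling it did not pass the test in any comparison. Marco, a scavenger receptor of macrophages that binds SCGB3A2 in mice, was at 0.167, 0.464 and 0.140 FPKM in eCRS_Exo and listed at 0 in all 6 eCRS and control libraries, and it was not tested. Cubn, the endocytic receptor cubilin that takes up Scgb1a1 in the kidney, did not exceed 0.118 FPKM in any library.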
